A study of Mus musculus with 8 samples.

Results

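The mouse segment on chromosome 7 that corresponds to human 16p11.2 holds several genes whose products work in the nucleus, and 8 of them are described here: Maz, Ino80e, Hirip3, Pagr1a, Cd2bp2, Ppp4c, Ypel3 and Kif22. They were chosen by name, for chromatin, transcription, splicing, phosphatase or mitotic roles, out of the 55032 genes of the count table. Striatum came from female C57BL/6 mice at postnatal day 60, 4 wild type (WT) and 4 heterozygous for the deletion (16p11.2+/-, labelled DF), with 1 RNA library per mouse. Mice are named by genotype and number, from WT-1015 to DF-1062, and errors after ± are SD over 4 mice (n = 4 per genotype). The deletion leaves 1 copy of every gene described. The total count per mouse was 15125051 to 16523429. The p-values set the difference between genotypes against the spread between these mice, which also holds the variation between their libraries.

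In 16p11.2+/- striatum 7 of the 8 genes were measurable, and each of the 7 was lower in every 16p11.2+/- mouse than in every WT mouse. Of all 18294 genes tested, 1.62% had groups apart in this way. The fall was significant in edgeR (adjusted p below 0.05) for 6 genes, Maz, Ino80e, Hirip3, Cd2bp2, Ypel3 and Ppp4c, where 0.0929% of all genes tested were significantly lower. With 1 mouse left out at a time, 3 to 5 of these genes passed, and Hirip3, Ypel3 and Ino80e were those lost. Kif22, at -1.13 on the log2 scale (standard error 0.21), missed the threshold in edgeR and passed it in DESeq2 (adjusted p = 0.00264, against 0.385), and Pagr1a had almost no counts in either genotype. The mean FPKM (reads scaled to exon length and to library size) in 16p11.2+/- mice was between 46.4% and 52.8% of the WT mean for these 7 genes. Of 69 tested genes elsewhere in the genome that act with the members or are related to them, none was significant in edgeR or DESeq2. Over all genes tested, 0.109% were significant in edgeR. The mitotic kinesins among the 69 had 9 of 9 negative log2 fold changes (median -0.47, against -0.01 over all genes tested). Their levels were low, and the most abundant, Kif11, had a mean of 1.33 FPKM in WT mice. Tested markers of dividing cells were negative in 6 of 7 (median -1.08), and none was significant in edgeR or DESeq2. Their sums were low in DF-1018, DF-1037 and DF-1062, the 16p11.2+/- mice with high thalamic markers.

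These genes act at different steps of gene expression. Maz is a zinc finger transcription factor that binds G-rich promoters and works with the insulator protein CTCF. Ino80e is a subunit of the INO80 complex, which moves nucleosomes and exchanges histone variants, and Hirip3 binds the histone chaperone HIRA and core histones. Pagr1a belongs to the complexes of the histone H3 methyltransferases KMT2C and KMT2D, which act at enhancers. Cd2bp2 is a protein of the U5 snRNP, a part of the splicing machinery, and Ppp4c is the catalytic subunit of protein phosphatase 4 (PP4), which dephosphorylates chromatin and DNA repair proteins. Ypel3 is a small zinc-binding protein of the yippee-like family that is linked to growth arrest, and Kif22 is a kinesin that binds chromosomes and moves them along spindle microtubules in mitosis.

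Promoter sequences are shown to describe the start regions of the members, of which the deletion leaves 1 copy. The RefSeq promoter table (GRCm38.p6) held all 8 genes, with 2 windows each for Maz, Ino80e and Ppp4c, and 1 window per gene is described. The 250 bases of this window, before the start, were searched on both strands. The motifs were GGGAGGG (the MAZ motif), AAGATGG (YY1), CCGGAAG (ETS factors), CGCATGCG (NRF1), TGACGTCA (CRE) and TATAAA. Maz itself held 4 matches to the MAZ motif, Ypel3 held 2 and Ino80e held 1, against at least 1 match in 19.7% of 32851 promoters. The ETS motif, found in 6.9% of all promoters, matched 2 times in Kif22 and 1 time in Hirip3 and in Ppp4c. Pagr1a held 2 NRF1 matches and 1 YY1 match, which 1.5% and 4.5% of all promoters held. Cd2bp2 matched none of the 6 motifs, and no member matched CRE or TATAAA, which 1.5% and 12.4% of all promoters held. The median GC content was 55.0% over the 8 promoters and 52.4% over all promoters, and that of Maz was 76.8%. Below are the parts of 4 of these windows that carry no annotated UTR, 5′ to 3′ on the strand of the gene, with matches in capitals. Maz (chr7:127027038-127027255, minus strand) shows the MAZ motif, Kif22 (chr7:127042472-127042670, minus strand) and Ppp4c (chr7:126792548-126792797, minus strand) the ETS motif, and Pagr1a (chr7:127017353-127017530, minus strand) the NRF1 and YY1 motifs. In Maz and in Ypel3 a pair of MAZ matches shares 1 base, and no match overlaps one to another motif. A match describes the sequence and was not tested as a binding site.
Maz: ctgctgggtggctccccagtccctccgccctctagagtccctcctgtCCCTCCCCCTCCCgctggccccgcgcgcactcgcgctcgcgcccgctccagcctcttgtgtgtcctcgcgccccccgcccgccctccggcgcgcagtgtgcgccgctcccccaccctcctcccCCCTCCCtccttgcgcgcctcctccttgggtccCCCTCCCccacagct
Kif22: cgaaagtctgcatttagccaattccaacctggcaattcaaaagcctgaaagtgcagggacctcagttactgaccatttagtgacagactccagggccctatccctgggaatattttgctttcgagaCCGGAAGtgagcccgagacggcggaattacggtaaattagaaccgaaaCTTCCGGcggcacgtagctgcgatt
Ppp4c: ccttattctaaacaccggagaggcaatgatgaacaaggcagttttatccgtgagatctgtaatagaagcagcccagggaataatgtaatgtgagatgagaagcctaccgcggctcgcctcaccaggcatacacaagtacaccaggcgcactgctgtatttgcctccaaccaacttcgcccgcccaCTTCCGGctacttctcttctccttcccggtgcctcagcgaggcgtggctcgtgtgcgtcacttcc
Pagr1a: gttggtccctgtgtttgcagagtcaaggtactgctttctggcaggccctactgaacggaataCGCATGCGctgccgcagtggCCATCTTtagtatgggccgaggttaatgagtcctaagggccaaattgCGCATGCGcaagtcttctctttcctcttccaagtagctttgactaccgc

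The libraries differed in markers of cells inside and outside striatum, and in such bulk samples fewer cells of a type and less RNA per cell cannot be told apart. Medium spiny neurons are the main neurons of striatum, and their 9 markers were present in every mouse. The summed FPKM of these markers was 919 to 1550 in WT mice and 1440, 353, 1340 and 282 in DF-1018, DF-1037, DF-1059 and DF-1062, with Penk, a neuropeptide precursor, the most abundant. The 7 thalamic markers summed to 24.6, 30.3, 20.3 and 210.0 in WT-1015, WT-1041, WT-1061 and WT-1063, and to 117.0, 214.0, 25.5 and 138.0 in DF-1018, DF-1037, DF-1059 and DF-1062, with Prkcd the most abundant. None of the defining markers was at 0 in either list. The choroid plexus list summed to 4410 in WT-1063 and 476 in WT-1015, nearly all of it Ttr, and to 7.65 to 126 in the other mice. The median log2 fold change was -0.53 for medium spiny neuron markers, 0.66 for thalamic markers and -2.45 for the 4 tested choroid plexus markers. Within each of these lists all tested values had the same sign, and none was significant in edgeR. Cortical markers summed to 17.9 to 167 across mice (median log2 fold change -0.58), and astrocyte, microglia, endothelial and oligodendrocyte precursor markers had medians between -0.06 and 0.04 (log2 fold change). Of 8 oligodendrocyte markers all had a negative log2 fold change (median -0.37). At an unadjusted p below 0.05 in edgeR there were 5 of the 8, against 4.32% of all genes tested. None was significant after adjustment in edgeR or in DESeq2. In the 4 mice with low thalamus scores the median log2 fold change of the 7 genes was -1.07, and in the 4 mice with high scores it was -0.9. Each of these splits has 1 mouse on a side, so the medians are given as values only. With the thalamus score as a covariate, 4 of the 7 members were significantly lower (Maz, Ino80e, Cd2bp2 and Ppp4c), where 0.0656% of all genes tested were. Hirip3 and Ypel3 then missed the threshold, with log2 fold changes of -0.99 and -1.

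Maz (ENSMUSG00000030678, chromosome 7 from 127022130 to 127027037 in GENCODE M21, GRCm38) had the highest mean of the 8 genes in the deposited FPKM. Its FPKM was 30.4, 34.3, 29.2 and 30.5 in WT-1015, WT-1041, WT-1061 and WT-1063. In DF-1018, DF-1037, DF-1059 and DF-1062 it was 13.6, 17.2, 14.2 and 15.3. The lowest WT mouse was therefore well above the highest 16p11.2+/- mouse, DF-1037. The mean was 31.1 ± 2.18 in WT and 15.1 ± 1.58 in 16p11.2+/- mice, a ratio of 48.5%. In the fit across all genes Maz fell by 1.06 on the log2 scale (standard error 0.09, adjusted p = 0.00219, edgeR's quasi-likelihood test with Benjamini-Hochberg adjustment over all genes).

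**Figure D1:**
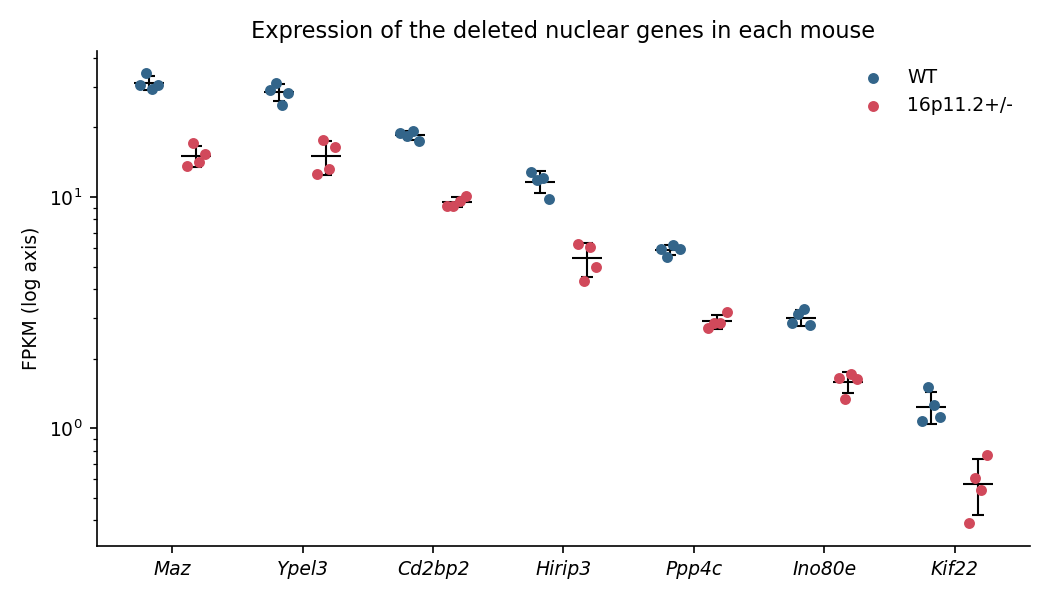
FPKM of the 7 measurable genes in each mouse on a log axis, with WT mice in blue, 16p11.2+/- mice in red, and bars for the mean and SD of 4 mice. In each gene the 4 red points lie below the 4 blue points, from Maz (means 31.1 and 15.1) down to Kif22 (means 1.24 and 0.576).

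The chromatin genes Ino80e and Hirip3 stand head to head. Ino80e (ENSMUSG00000030689) lies on the minus strand from 126850960 to 126862377, and Hirip3 (ENSMUSG00000042606) on the plus strand from 126861972 to 126865377, so that their annotated starts overlap by 406 bases. Ino80e had FPKM values of 2.85, 3.13, 3.27 and 2.78 in WT-1015, WT-1041, WT-1061 and WT-1063. The values in DF-1018, DF-1037, DF-1059 and DF-1062 were 1.64, 1.34, 1.71 and 1.63. DF-1037 was the lowest, and the groups did not overlap. Ino80e fell by 0.95 on the log2 scale (standard error 0.11, adjusted p = 0.0183, edgeR). It missed the threshold in 6 of the 8 fits with a mouse left out (adjusted p up to 0.112) and in limma-trend at both pseudocounts (adjusted p = 0.0565 and 0.0667). Of its exon bases, 16.4% also lie in a gene on the opposite strand, most of them (1103 bases) in Doc2a and 150 bases in Hirip3. Doc2a had 20 to 99 counts in WT and 6 to 49 counts in 16p11.2+/- mice, against 330 to 410 and 157 to 212 counts for Ino80e. Hirip3 had more counts than Ino80e, with 519 to 650 in WT and 216 to 324 in 16p11.2+/- mice. Whether the reads were counted by strand was not given in the sources used here.

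Hirip3 had FPKM values of 12.8, 11.9, 12.1 and 9.83 in WT-1015, WT-1041, WT-1061 and WT-1063. In DF-1018, DF-1037, DF-1059 and DF-1062 they were 6.27, 4.31, 6.1 and 5.0. Hirip3 was lowest in WT-1063 among WT mice and in DF-1037 and DF-1062 among 16p11.2+/- mice, and the groups did not overlap. Means were 11.7 ± 1.29 and 5.42 ± 0.93. Hirip3 fell by 1.12 on the log2 scale (standard error 0.15, adjusted p = 0.044, edgeR) and passed in 1 of the 8 fits with a mouse left out (adjusted p up to 0.215). These 3 mice were high in thalamic neuron markers, as was DF-1018, in which Hirip3 was highest among 16p11.2+/- mice. With the thalamus score as a covariate the log2 fold change was -0.99 (adjusted p = 0.0584, edgeR). DESeq2, without this covariate, gave an adjusted p of 1.18e-07.

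Pagr1a (ENSMUSG00000030680, from 127015033 to 127017352, minus strand) had 0 counts in each of the 4 WT mice and 0, 2, 0 and 1 counts in DF-1018, DF-1037, DF-1059 and DF-1062. It did not enter the test and no fold change was computed, and a count of 0 allows up to 3 counts per library. Of its 1430 exon bases, 98.7% also lie in the exons of Gm42742 (ENSMUSG00000107068) on the same strand, and 24.3% in those of Pagr1b, which had 0 counts in all 8 mice. Gm42742 had 82, 65, 71 and 31 counts in WT-1015, WT-1041, WT-1061 and WT-1063, and 24, 27, 23 and 33 counts in DF-1018, DF-1037, DF-1059 and DF-1062. WT-1063 therefore overlapped the 16p11.2+/- mice. The edgeR fit for Gm42742 gave -1.26 on the log2 scale (standard error 0.31, adjusted p = 0.859). Reads of Pagr1a and Gm42742 cannot be told apart over these bases, and the part of this overlap in the low counts of Pagr1a was not tested. The start of the coding sequence shows the overlap: these 90 bases (chr7:127016832-127016921, minus strand, the start codon in capitals) occur in 3 of the 5 annotated Gm42742 transcripts and not in the Pagr1b transcript. Gm42742 was named after its values were seen.
Pagr1a coding start: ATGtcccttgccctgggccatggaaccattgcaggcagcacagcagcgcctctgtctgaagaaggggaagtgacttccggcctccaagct

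Cd2bp2 (ENSMUSG00000042502, from 127191660 to 127196050, minus strand) was the most even of the members within each genotype. Its FPKM was 18.9, 18.4, 19.3 and 17.4 in WT-1015, WT-1041, WT-1061 and WT-1063. In DF-1018, DF-1037, DF-1059 and DF-1062 it was 9.11, 9.13, 9.59 and 10.1. No 16p11.2+/- mouse came near the WT range. The coefficient of variation was 4.3% in WT and 4.84% in 16p11.2+/- mice, where counting error alone gives 4.08%. Cd2bp2 fell by 0.99 on the log2 scale (standard error 0.07, adjusted p = 0.000777, edgeR).

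Ppp4c (ENSMUSG00000030697, from 126785866 to 126792496, minus strand) had FPKM values of 5.95, 5.52, 6.19 and 5.98 in WT-1015, WT-1041, WT-1061 and WT-1063. The values in DF-1018, DF-1037, DF-1059 and DF-1062 were 2.7, 2.86, 2.84 and 3.18. Both groups were narrow and lay apart. Ppp4c fell by 1.05 on the log2 scale (standard error 0.08, adjusted p = 0.00169, edgeR). The coefficient of variation in 16p11.2+/- mice was 7.03%, and counting error alone gives 7.13%.

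Ypel3 (ENSMUSG00000042675, from 126776955 to 126780514, plus strand) had FPKM values of 29.0, 31.0, 25.1 and 28.3 in WT-1015, WT-1041, WT-1061 and WT-1063. In DF-1018, DF-1037, DF-1059 and DF-1062 the values were 12.6, 17.7, 13.2 and 16.4. The 16p11.2+/- mice formed a low pair (DF-1018 and DF-1059) and a higher pair (DF-1037 and DF-1062), all below the WT mice. Ypel3 fell by 0.94 on the log2 scale (standard error 0.12, adjusted p = 0.0245, edgeR) and passed in 1 of the 8 fits with a mouse left out (adjusted p up to 0.165). With the thalamus score as a covariate it stood at -1 on the log2 scale and missed the threshold (adjusted p = 0.0584, edgeR). DESeq2, without this covariate, gave an adjusted p of 2.24e-08. Its coefficient of variation in 16p11.2+/- mice was 16.3%, above the 4.78% that counting error alone gives. The higher pair also had the lowest scores of medium spiny neuron markers (mean log2 CPM 6.71 and 6.27), whose part in the level of Ypel3 was not tested.

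Kif22 (ENSMUSG00000030677, from 127027729 to 127042471, minus strand) is the neighbour of Maz, 691 bases away on the same strand, and had the lowest level of the 7 measurable genes. Its FPKM was 1.07, 1.5, 1.26 and 1.12 in WT-1015, WT-1041, WT-1061 and WT-1063. In DF-1018, DF-1037, DF-1059 and DF-1062 it was 0.388, 0.611, 0.539 and 0.765. The groups did not overlap, and DF-1062 was the highest of the 16p11.2+/- mice. Behind these values were 79 to 113 counts per WT mouse and 29 to 62 counts per 16p11.2+/- mouse, where counting error alone gives a coefficient of variation of 14.9%. For Kif22 edgeR fitted -1.13 on the log2 scale (standard error 0.21, adjusted p = 0.385), and DESeq2 gave an adjusted p of 0.00264, the lowest of 20 alternatives. With a mouse left out the adjusted p was 0.342 to 0.984 (edgeR). Markers of dividing cells, in which kinesins of the spindle are made, were low in 3 of the 4 16p11.2+/- mice, which are the 3 with high thalamus scores. The FPKM of the 8 listed markers summed to 5.36, 6.44, 4.52 and 3.93 in WT-1015, WT-1041, WT-1061 and WT-1063, and to 2.71, 2.6, 5.43 and 2.67 in DF-1018, DF-1037, DF-1059 and DF-1062, with Ccna2 the most abundant and none at 0. Of 7 such markers tested (median log2 fold change -1.08) none was significant after adjustment in edgeR or in DESeq2. At an unadjusted p below 0.05 in edgeR there were 4 of the 7, against 4.32% of all genes tested. Among the 4 was Mki67, with a log2 fold change of -1.08 (adjusted p = 0.859, edgeR). The log2 fold changes of the 7 markers ranged from -1.68 to 0.14, with Ccna2 at -0.27. Kif22 and these markers differed in order between 16p11.2+/- mice. Kif22 was highest in DF-1062 (0.765), where the marker sum was 2.67, and lower in DF-1059 (0.539), where it was 5.43. The part of dividing cells in the level of Kif22 was not tested, and with the thalamus score as a covariate Kif22 stood at -1.1 on the log2 scale (adjusted p = 0.838).

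Ordered by mean FPKM in WT striatum, the genes were Maz, Ypel3, Cd2bp2, Hirip3, Ppp4c, Ino80e and Kif22. The ranges of Maz and Ypel3 overlapped, and every other neighbour in this order was separated in both genotypes. The deposited FPKM uses the summed length of all annotated exons of a gene, which is 4281 bases for Ppp4c against 1400 bases of its principal transcript. Rescaled to the principal transcript, Ppp4c had a mean of 18.1 in WT mice and stood above Hirip3 (13.8), and Ino80e, with no principal transcript annotated, was not placed. The summed FPKM of the 7 genes was 99.8 ± 4.57 in WT and 50.0 ± 3.26 in 16p11.2+/- mice, a ratio of 50.1%.

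A gene that has lost 1 of 2 copies with no other change has a log2 fold change of -1. The fitted log2 fold changes lay between -1.13 for Kif22 and -0.94 for Ypel3, with a median of -1.05 against -0.01 over all genes tested. The 95% interval held -1 for all 7 genes. It was narrowest for Cd2bp2, from -1.14 to -0.84, which is 45.4% to 55.9% of the WT level. The interval of Kif22 was widest, from -1.61 to -0.65, or 32.8% to 63.9% of the WT level. Intervals of Maz and Ppp4c reached from 41.6% to 55.0% and from 42.3% to 55.0%. Those of Ino80e and Ypel3 reached up to 61.6% and 62.4%, and that of Hirip3 from 36.2% to 58.1%. When the FPKM of 16p11.2+/- mice was multiplied by 2 and compared with WT mice, the exact permutation p (two-sided, 70 assignments) was between 0.486 and 0.657. Changes smaller than these intervals, in either direction from 1 copy, were not detectable with 4 mice per genotype. Without the multiplication the exact permutation p on FPKM was 0.0286 for each of the 7 genes, the smallest that 4 against 4 mice can give.

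**Figure D2:**
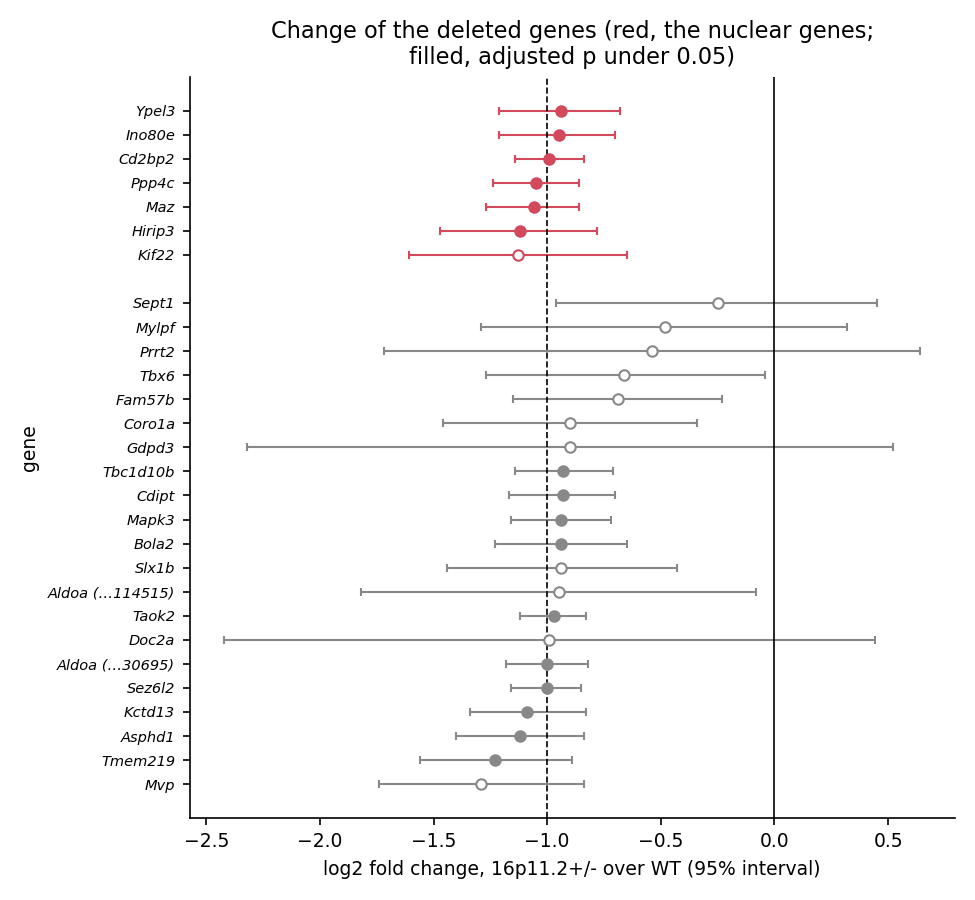
Log2 fold change with its 95% interval for the 7 measurable nuclear genes (red) and 21 entries of other deleted genes (grey). Points are filled where the adjusted p passed 0.05, and the dashed line is at -1. All red intervals cross the dashed line, and the filled red points lie between -1.12 and -0.94.

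The members did not vary in parallel between 16p11.2+/- mice. On the log2 CPM scale relative to the WT mean, DF-1037 had the highest value of Maz (-0.86) and Ypel3 (-0.68) and the lowest of Ino80e (-1.17) and Hirip3 (-1.43). In DF-1018 Hirip3 and Ino80e stood at -0.86 and -0.84, while Maz was at -1.16 and Kif22 at -1.57. Cd2bp2 lay between -1.03 and -0.96 in all 4 mice. Averaged over the 7 genes, the mean log2 CPM was 4.99 to 5.15 in WT mice and 3.99 to 4.09 in 16p11.2+/- mice. No mouse was thus out of line with its genotype label in these genes.

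**Figure D3:**
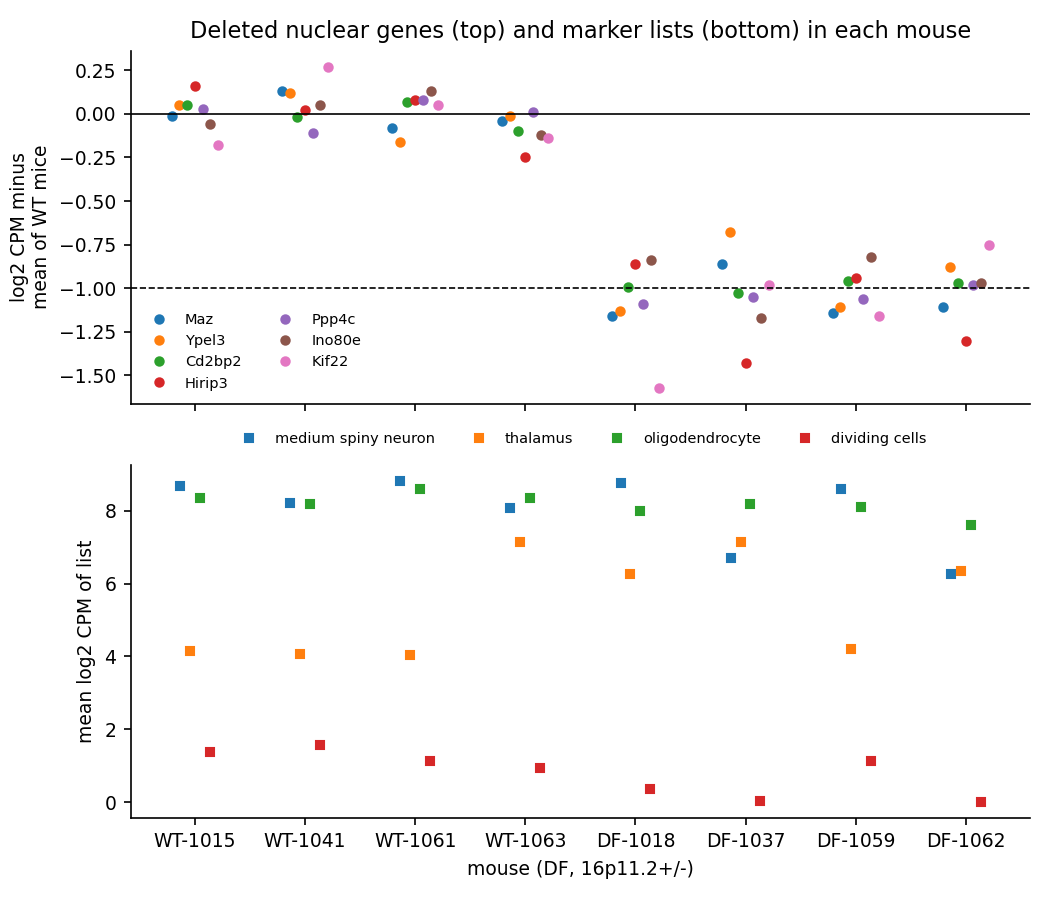
Top, log2 CPM of each of the 7 genes in each mouse minus the mean of the WT mice, with the dashed line at -1. Bottom, mean log2 CPM of 4 marker lists in the same mice. The 7 genes drop in all 4 16p11.2+/- mice, whereas thalamus markers are high in WT-1063 and in DF-1018, DF-1037 and DF-1062.

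Maz, Cd2bp2 and Ppp4c each stayed significant in edgeR whichever mouse was left out. Hirip3 passed without WT-1063 (adjusted p = 0.0474) and Ypel3 without DF-1037 (adjusted p = 0.0202), and both missed it with any other mouse left out. Ino80e kept significance without WT-1063 or without DF-1037. The log2 fold changes of these 3 genes then stayed between -1.21 and -0.88.

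The other genes of the segment give the setting of these values. Of 24 other listed gene entries 21 were tested, 10 of them were significantly lower, and all 21 log2 fold changes were negative (median -0.94). The lowest log2 fold change was that of Mvp, the major vault protein (-1.29, adjusted p = 0.0986), and the highest was that of Sept1, a septin (-0.25, 95% interval -0.96 to 0.45), the only interval that lay above -1. Aldoa, a glycolytic enzyme, had the highest level, with an FPKM of 301 ± 9.48 in WT and 153 ± 7.63 in 16p11.2+/- mice. Another entry of Aldoa (ENSMUSG00000114515) had an FPKM of 1.22 ± 0.409 in WT and 0.637 ± 0.212 in 16p11.2+/- mice. Between Slx1b and Sept1 there were 17 genes significantly lower, of which 6 were members, 10 were other listed genes and 1 was Gm21984, named after its values were seen. Outside these ends, none of the 34 genes tested within 600 kb of the start of Maz was significant in edgeR or had an unadjusted p below 0.05 (smallest adjusted p 0.859, median log2 fold change 0.02). The next tested gene beyond Sept1, Zfp553, had a log2 fold change of 0.20 (adjusted p = 0.859, edgeR), and was also named after its values were seen.

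**Figure D4:**
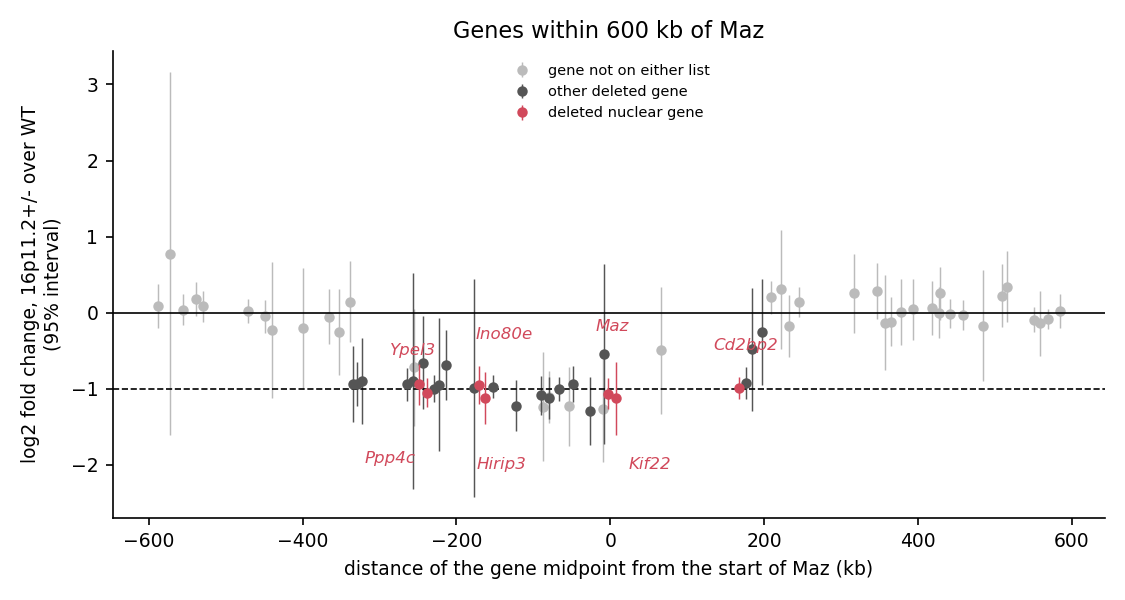
Log2 fold change with its 95% interval against the distance of each tested gene's midpoint from the start of Maz, in kb. The nuclear genes (red) lie along the dashed line at -1 over most of the segment, among other deleted genes (dark grey), and the flanking genes lie around 0 with a median of 0.02.

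Across all 8 mice, the 5 genes with profiles most like the mean profile of the members were Sez6l2, Taok2, Aldoa, Kctd13 and Bola2, all of the same segment. Likeness was the root mean square distance of log2 CPM values taken relative to the WT mean, which was 0.055 for Sez6l2, a neuronal membrane protein, 0.062 for Taok2, a kinase, and 0.079 for Aldoa. Kctd13 and Bola2 followed at 0.115 and 0.134. The members themselves lay between 0.057 (Cd2bp2) and 0.221 (Kif22) from their own mean.

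Genes outside the segment that act with the members or belong to related families, together called partner genes, were examined next. Of 72 such genes 69 were tested and none was significant in edgeR or in DESeq2, where 0.109% of all genes were significant in either direction in edgeR. At an unadjusted p below 0.05 there were 2 of 69 (2.9%), Kif11 and Kif20b, against 790 of all genes (4.32%). Their median log2 fold change was -0.07, and 63 of the 69 intervals lay above -1. The 6 intervals that held -1 were all among the 9 tested mitotic kinesins.

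The 14 other INO80 subunits had a median log2 fold change of -0.08, from -0.16 for Ino80b to 0.15 for Actr5, an actin-related subunit. Ruvbl1, an ATPase and the most abundant of them, had an FPKM of 15.8 ± 1.28 in WT and 17.2 ± 0.954 in 16p11.2+/- mice. In the HIRA pathway, which deposits histone H3.3, 7 of 8 genes were tested, with a median of -0.06. H3f3b, the more abundant H3.3 gene, had an FPKM of 61.3 ± 3.43 in WT and 61.0 ± 8.38 in 16p11.2+/- mice. H3f3a had the lowest log2 fold change of the list (-0.20, adjusted p = 0.859) and Cabin1, a subunit of the chaperone, the highest (0.07). The 9 genes of the KMT2C and KMT2D complexes ranged from -0.16 for Kdm6a, the H3K27 demethylase, to 0.36 for Dpy30 (adjusted p = 0.859), and Rbbp5 had the highest level, an FPKM of 14.8 in WT and 15.7 in 16p11.2+/- mice.

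Of the 6 PP4 partners, the regulatory subunit Ppp4r3a had the lowest log2 fold change (-0.16, standard error 0.07, adjusted p = 0.859) and Igbp1, which binds free catalytic subunits, the highest (0.01). Ppp4r4 was the most abundant, with an FPKM of 19.2 ± 1.73 in WT and 17.6 ± 5.22 in 16p11.2+/- mice. The 6 catalytic subunits of related phosphatases lay between -0.30 for Ppp1ca and 0.02 for Ppp2cb. Ppp1ca, a catalytic subunit of protein phosphatase 1, was the most abundant of them at 164 ± 23.5 FPKM in WT and 134 ± 42.1 in 16p11.2+/- mice. The 7 U5 snRNP genes lay between -0.08 for Eftud2, a GTPase, and 0.10 for Txnl4a, and Prpf8, the core of the spliceosome, had an FPKM of 34.6 ± 0.942 in WT and 35.8 ± 5.28 in 16p11.2+/- mice.

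Among the 4 other yippee-like genes, Ypel2 had the lowest log2 fold change (-0.42, standard error 0.21, adjusted p = 0.859) and Ypel4 the highest (0.22). Ypel2 had a mean FPKM of 31.9 ± 5.01 in WT mice, where Ypel3 had 28.3, and 24.2 ± 5.97 in 16p11.2+/- mice. It was lowest in DF-1062, at 16.6. Factors related to Maz or acting with it ranged from -0.16 for Ctcf, also the most abundant in WT mice (FPKM 18.5), to 0.00 for Vezf1. In 16p11.2+/- mice the FPKM was 16.8 for Ctcf and 16.9 for Max. The 9 tested mitotic kinesins had a median of -0.47 on the log2 scale, and all 9 values were negative, from -0.74 for Kif11, which slides spindle microtubules apart, to -0.07 for Kif15. Kif11, the most abundant of these, had an FPKM of 1.33 ± 0.388 in WT and 0.805 ± 0.261 in 16p11.2+/- mice, and DF-1059, at 1.16, lay within the WT values. The same mouse had the highest dividing cell score of the 16p11.2+/- mice, a mean log2 CPM of 1.14, against 0.369, 0.0216 and 0.0102 in DF-1018, DF-1037 and DF-1062 and 0.926 to 1.56 in WT mice, with WT-1063, the WT mouse with a high thalamus score, the lowest. The part of dividing cells in these kinesin values was not tested.

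**Figure D5:**
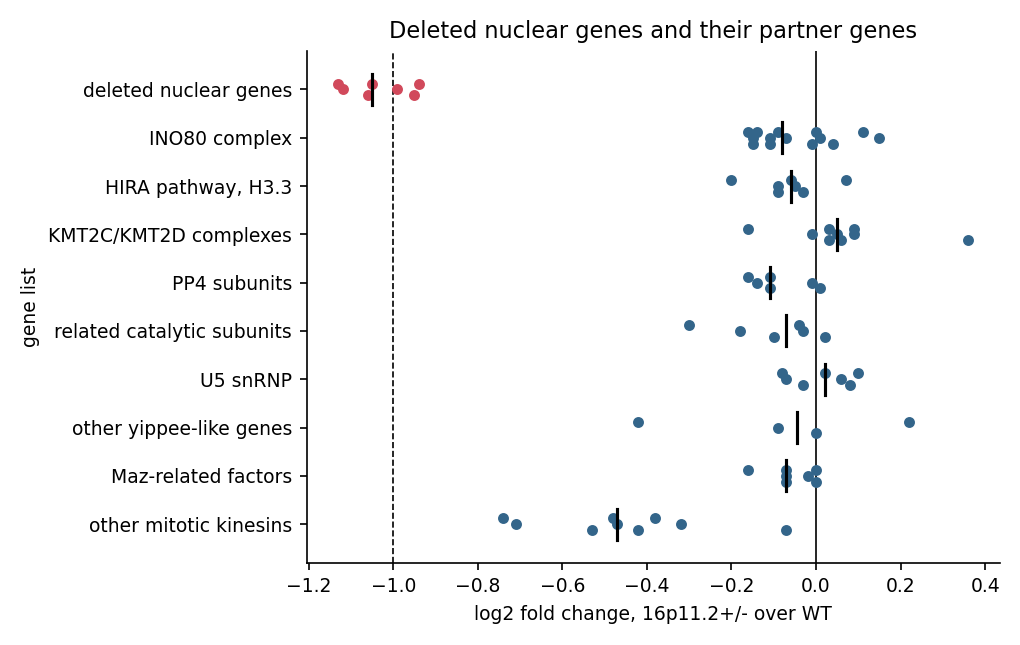
Log2 fold change of each tested gene, by list, with a vertical bar at the median of the list and the dashed line at -1. The 7 deleted genes (red) lie between -1.13 and -0.94, and the partner genes (blue) lie mostly near 0, with a median of -0.47 for the mitotic kinesins.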

How the data were processed

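RNA from the striatum of 8 mice was sequenced. For 55032 genes the authors deposited raw counts and FPKM values per mouse. The paper's methods name Hisat2 and Htseq-count, whereas the submitters' processing notes name Bowtie 0.12.2 and the builds mm8 and mm9, and the annotation and strand setting of the counting are not given in the sources used here. The length implied by the deposited FPKM equalled the union exon length in GENCODE M21 within 0.1% for 97.4% of 35149 genes, so positions were taken from there. The deposited table of the authors' comparison (group means, fold changes and p-values) and a summary of FPKM in bins were not used. The row of Sept1, deposited as a date, was named by its gene ID.

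The quasi-likelihood test of edgeR 4.0.16 (R 4.3.3) was applied to the counts after TMM scaling and filterByExpr (at least 10 counts, total at least 15), with Benjamini-Hochberg adjustment over 18294 genes and a threshold of 0.05. Standard errors were computed from the F statistic, and 95% intervals from the t distribution. FPKM was compared by exact permutation tests (SciPy 1.17.1). Marker scores average log2 CPM values (prior count 2). The code was tested on simulated data. The members, gene lists and motifs were chosen with earlier results of these data known. The genes named were the members, the 5 genes most like them, the other deleted genes with the lowest and highest log2 fold change, and, of each partner list, the gene with the highest FPKM, those with the lowest and highest log2 fold change and any past the threshold. Of marker lists the most abundant gene was named. The choice of Mki67, Kif20b and Doc2a was made with their values in view. The labels give no batch. DESeq2 1.42.0, limma 3.58.1, other scalings and filters, the thalamus score and each mouse left out were tried as alternatives.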

Additional observations from a re-analysis of the deposited data

Results flagged for a closer look

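Of 56 sets of 4 mice examined, 2 held a mouse that stood far from the other 3 of its genotype, and chance alone gives such a gap in about 1 of 20 sets. The thalamus score (mean log2 CPM) was 7.14 in WT-1063 against 4.03 to 4.14 in the other WT mice, a gap of 0.965 of the whole range. The mean log2 CPM of the other yippee-like genes was 5.48 in DF-1062 against 5.74 to 5.76 in the other 16p11.2+/- mice, a gap of 0.929 of the range. None of the 7 measurable members had such a mouse in either genotype.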

How the results depend on the processing

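All 140 log2 fold changes of the 7 members computed under the alternatives were negative, from -1.26 to -0.51. The number of members past the threshold was 6 with limma-voom, RLE factors, library totals, factors made without the deleted genes and both filters, 7 with DESeq2, 5 with limma-trend on log2 FPKM at both pseudocounts and 4 with the thalamus score as a covariate, where 29 of 20460, 18 of 18294 and 14 of 18294 genes passed. It was 0 when the high thalamus mice were left out and 0 in these mice only, where 3 and 0 of all genes passed, and the median log2 fold change of the members was -0.9 in the latter; both splits leave 1 mouse on a side, whose spread was assumed equal to that of the others, and nothing is drawn from their calls. The median was -0.89 with limma-trend on log2(FPKM + 1), a pseudocount that shrinks low genes. With 1 mouse left out at a time, 3 to 5 members and 8 to 18 of all genes passed, and the median was -1.05 to -0.98; the number of partner genes past the threshold stayed at 0. The DF to WT ratio of FPKM lay between 41.5% and 55.5% over members with geometric means or a mouse left out. The principal transcript length, an alternative chosen after seeing the data, moved Ppp4c from rank 5 to 4 and Hirip3 from rank 4 to 5. No paired analysis was possible because each mouse number occurs in 1 genotype only. The 29 to 62 counts of Kif22 per 16p11.2+/- mouse limit its precision.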
